A study of Mus musculus with 4 samples.

Results

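The 10 genes described here encode the beaded filament and the membrane skeleton of the lens fiber cell. They were listed by symbol, *Bfsp1*, *Bfsp2*, *Tmod1*, *Tmod3*, *Sptan1*, *Sptbn1*, *Ank2*, *Prx*, *Lgsn* and *Ezr*, and all 10 were present among the 14924 genes of the deposited table. RNA was measured by stranded mRNA-seq in 4 libraries, 2 of *S100A4*-/- (null) mouse lenses and 2 of wild type (WT) littermate lenses. The null line was kept on a C57BL/6J background, the mice were at postnatal day 30 (P30, 1 month old), and each library was a pool of 6 to 12 whole lenses with no other treatment in either group. Mice of both sexes were used in the study, and the sexes in each pool are not given in the sources used here. A pool of whole lenses holds epithelium as well as fibers, so fewer cells of a type and less RNA per cell cannot be told apart. The libraries of a group are described as biological repeats, and p-values rest on the spread between these pools. With 2 libraries in a group, limma, edgeR and DESeq2 estimate that spread for a gene largely from other genes of similar level.

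Fiber cells are long, tightly packed cells that lose their nuclei and other organelles as they mature, and they depend on a cytoskeleton pressed against the plasma membrane to keep their shape. The beaded filament is an intermediate filament found only in the lens, assembled from *Bfsp1* (filensin) and *Bfsp2* (phakinin). Under the membrane, spectrin tetramers cross-link short actin filaments whose pointed ends are capped by tropomodulin, ankyrin ties this network to membrane proteins, and periaxin and ezrin take part in further scaffolds at the fiber surface. Loss of beaded filament proteins or of parts of this skeleton is known to disturb fiber packing or lens clarity. The study asked how the transcriptome of the lens differs when the calcium-binding protein S100A4, which is abundant in fibers, is missing.

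The first and second *S100A4*-/- libraries held 81602367 and 74108017 reads on genes, and the WT libraries 70253985 and 68038158. A value is the number of reads on a gene divided by the size factor of its library, and 1 read was worth between 0.856 and 1.09. The deleted gene itself, *S100a4*, was at 14420 and 14385 in WT lenses and at 14.6 and 18.2 in *S100A4*-/- lenses, so every library matched its label. It fell by 9.70 on the log2 scale (limma adjusted p = 6.42e-41), and the few remaining reads were 17 and 18 in number.

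The RNA of this skeleton was almost as abundant in *S100A4*-/- lenses as in WT lenses. All 10 genes had a lower mean in *S100A4*-/- lenses with the authors' scaling, by 1.58% (*Sptbn1*) to 9.74% (*Sptan1*), where 51.2% of all genes tested and 58.6% of those with a mean value of 200 or more were lower, although the directions of *Bfsp2* and *Sptbn1* turned when every library was scaled to the same total, and those of *Bfsp1* and *Sptbn1* under quantile normalization. Of the 10, *Sptan1* alone passed an adjusted p of 0.05 (limma, with all adjusted p-values by Benjamini and Hochberg over the 14780 genes tested), where 6.96% of all genes passed, 5.62% higher and 1.33% lower. Over all genes 831 were higher and 197 lower, 571 and 91 with DESeq2, and 785 and 55 with libraries scaled to the same total. The *Sptan1* call was lost with that scaling, under quantile normalization and without a variance trend, and with edgeR *Lgsn* passed as well. With the study's further demand of at least a 2-fold change, 0 of the 10 passed by limma, DESeq2 or edgeR, and 3.72% of all genes passed that rule by limma. An unadjusted limma p under 0.05 was reached by 4 of the 10 and by 17.7% of all genes. In the same libraries all 7 photoreceptor markers examined rose at least 2-fold, as given further on. The study had already listed these 7 as raised in these libraries, so that count is no independent result.

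The genes fell into 3 tiers by their level in WT lenses, given here per kilobase of exons. *Lgsn*, *Bfsp1* and *Bfsp2* formed the top tier, with levels of 349188 ± 1918 (SD, n = 2 libraries), 298749 ± 3910 (SD, n = 2) and 199297 ± 136 (SD, n = 2). Their ranks were 17, 20 and 22 among the 14782 genes with a known exonic length. The next gene, *Sptan1*, was 42.1 times below *Bfsp2*, at 4739 ± 110 (SD, n = 2), which was still rank 185. *Ezr* followed at 3634 ± 149 (SD, n = 2) and *Sptbn1* at 2056 ± 76.4 (SD, n = 2). *Tmod1* was at 1370 ± 25.5 (SD, n = 2), *Ank2* at 884 ± 17.6 (SD, n = 2) and *Prx* at 792 ± 13.2 (SD, n = 2). *Tmod3* was the lowest with 23.1 ± 1.38 (SD, n = 2), at rank 10272.

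Each gene of this order lay above the next in all 4 libraries, and no pair of neighbours overlapped between the WT libraries. The order was the same per kilobase of coding sequence, but there *Sptbn1* and *Tmod1* differed by a factor of only 1.01, within the spread of the replicates. Taken per kilobase of the longest transcript, *Sptbn1* passed *Ezr* and *Ank2* passed *Tmod1*, so 6 of the 10 kept their place. *Tmod3*, whose annotated exons cover 11151 bases and its longest coding sequence 1056, moved most with the choice of length. It lay 34.3 times below *Prx* per kilobase of exons, but 4.35 times per kilobase of coding sequence, where its rank was 6670, and 12.4 times per kilobase of the longest transcript. The gap between *Bfsp2* and *Sptan1* was 32.1 times with coding sequence and 25.8 times with the longest transcript. Together the 10 genes held 2.54% ± 0.00481 of all reads in WT (SD, n = 2) and 2.46% ± 0.0765 in *S100A4*-/- lenses (SD, n = 2).

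**Figure D1:**
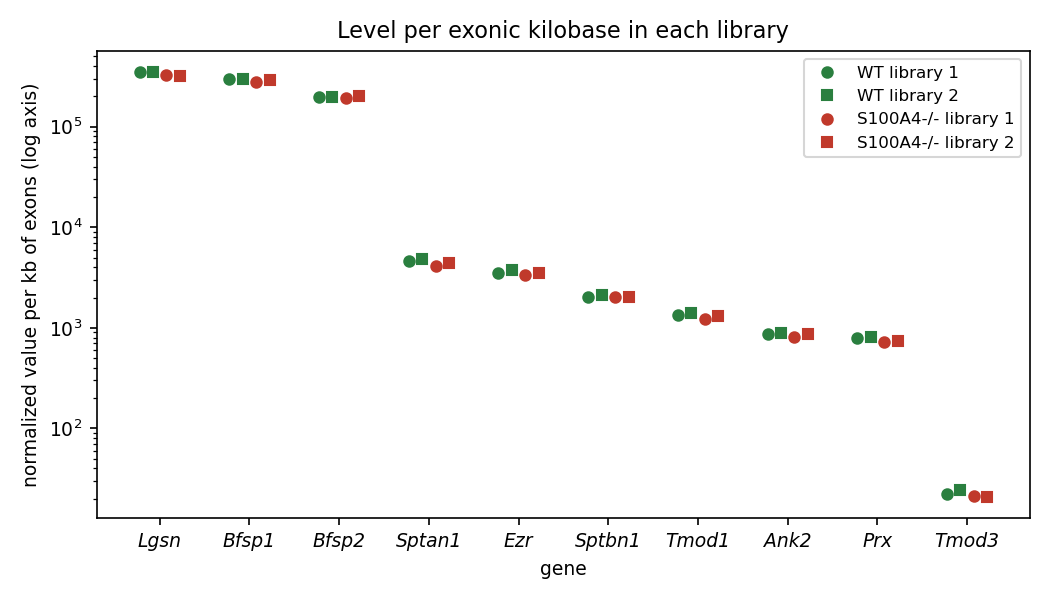
Normalized value per kilobase of exons (log axis) of the 10 genes, ordered by their mean in WT lenses, with a point for each of the 4 libraries. *Lgsn*, *Bfsp1* and *Bfsp2* lie far above the other genes and *Tmod3* far below, and the points of the genotypes nearly coincide on this scale.

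The promoters of these genes differed in base composition. RefSeq (GRCm38.p6) gave a window for 9 of the 10 genes, and for 7 of them the window began within 500 bases of the annotated start of the gene. The 250 bases before the RefSeq start held 2 CpG dinucleotides in *Bfsp1*, 1 in *Lgsn* and 2 in *Prx*, against a median of 6 over 32851 mouse promoter windows. The other 4 windows held more, with 31 in *Sptan1*, 32 in *Ezr*, 19 in *Ank2* and 17 in *Tmod1*. The RefSeq starts of *Tmod1* and *Ank2* lie 287 and 235 bases inside the GENCODE gene models, so their windows fall wholly or mostly within the annotated gene. The last 120 bases before the first annotated base are shown for the most abundant of the genes and for the gene that passed the test, to make this contrast visible, with each CpG in capitals. *Bfsp1* is at chr2:143863174-143863293 on the minus strand, *Lgsn* at chr1:31176281-31176400 on the plus strand and *Sptan1* at chr2:29965440-29965559 on the plus strand, and each is written 5′ to 3′ along the gene.
Bfsp1: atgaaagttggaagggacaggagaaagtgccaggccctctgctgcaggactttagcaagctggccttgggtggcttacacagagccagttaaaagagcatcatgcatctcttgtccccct
Lgsn: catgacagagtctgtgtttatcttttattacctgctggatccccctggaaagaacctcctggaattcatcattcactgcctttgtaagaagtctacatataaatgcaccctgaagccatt
Sptan1: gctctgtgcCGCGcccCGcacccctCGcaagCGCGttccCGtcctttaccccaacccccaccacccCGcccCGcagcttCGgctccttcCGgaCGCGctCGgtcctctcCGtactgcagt

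In these stretches *Bfsp1* and *Lgsn* have 0 CpG and *Sptan1* has 15. Short motifs were searched on both strands of the 250-base windows, the TATA box TATAAA, the half-site of the lens factor Maf, TGCTGA, and the heat shock element GAANNTTC. The TATA box was in 2 of the 7 windows (*Ank2* and *Lgsn*) and in 12.4% of all windows, the Maf half-site in 2 (*Bfsp1* and *Lgsn*) and in 16.1% of all windows, and the heat shock element in 0 and in 6.69% of all windows. These are matches of letters and not measured binding, and no chromatin was measured in these libraries. The TATA match of *Ank2*, 233 bases before its RefSeq start, lies within the annotated gene. The RefSeq start of *Lgsn* is 34 bases inside the gene model. Its Maf match begins 35 bases before that start and so lies mostly within the annotated gene.

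*Bfsp1* (ENSMUSG00000027420, chromosome 2 of GRCm38, 143826528 to 143863173) encodes filensin, the larger partner of the beaded filament. Its values were 707403 and 720617 in WT lenses and 666795 and 700675 in *S100A4*-/- lenses. Both *S100A4*-/- values lay below both WT values, the second by little. The log2 difference, *S100A4*-/- minus WT on log2(value + 1), was −0.06 (SE 0.05, limma adjusted p = 0.538), which is 4.27% lower, with a 95% interval from 10.4% lower to 2.33% higher. The log2 difference was −0.03 without the first *S100A4*-/- library and −0.10 without the second.

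*Bfsp2* (ENSMUSG00000032556, chromosome 9, 103424924 to 103480420) encodes phakinin, the second partner. It was at 338570 and 338244 in WT lenses and at 325224 and 339432 in *S100A4*-/- lenses. The first *S100A4*-/- library was the lowest of the 4 and the second the highest, so the groups overlapped. The log2 difference was −0.03 (SE 0.04, limma adjusted p = 0.826), with an interval from 7.67% lower to 4.40% higher. It was 0.00436 without the first *S100A4*-/- library and −0.0573 without the second. Some inbred mouse strains carry a natural deletion in *Bfsp2* that removes the protein from the lens, and a count over the whole gene does not show whether a single exon is missing. The ratio of the *Bfsp2* value to the *Bfsp1* value was 0.488 and 0.484 in *S100A4*-/- and 0.479 and 0.469 in WT lenses. Corrected for exonic length it was between 0.661 and 0.687 in all 4 libraries. The ratio was higher in both *S100A4*-/- libraries, by 0.04 on the log2 scale, with an exact two-sided permutation p of 0.333, which is the smallest that 2 libraries against 2 can give. Over the 4 ratios of partner genes computed, its adjusted p was 0.667 by the exact permutation test.

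*Lgsn* (ENSMUSG00000050217, chromosome 1, 31176401 to 31204725) encodes lengsin, a lens protein of the glutamine synthetase family without known enzyme activity, which binds intermediate filament proteins of the fiber. Its values were 627115 and 622163 in *S100A4*-/- and 673751 and 679003 in WT lenses. The replicates of each group were close together and the groups did not overlap. The log2 difference was −0.11 (SE 0.05, limma adjusted p = 0.153), 7.65% lower with an interval from 13.5% to 1.45% lower. edgeR's quasi-likelihood test on the recovered reads put it past the threshold (Benjamini-Hochberg adjusted p = 0.0449), and the range of its adjusted p over the settings tried was 0.0449 to 1.

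*Sptan1* (ENSMUSG00000057738, chromosome 2, 29965560 to 30031451) encodes alpha II-spectrin, the alpha chain of the spectrin tetramer in most cells. It was at 62274 and 64362 in WT lenses and at 55239 and 59106 in *S100A4*-/- lenses. Both *S100A4*-/- values lay below both WT values, and the first was the lower. It fell by 0.15 on the log2 scale (SE 0.04, limma adjusted p = 0.0198), 9.74% lower with an interval from 14.9% to 4.31% lower. It also passed with DESeq2 (adjusted p = 0.0366) and edgeR (adjusted p = 0.0360). The call was lost without the first *S100A4*-/- library (log2 difference −0.10, limma adjusted p = 0.178), without the first WT library (−0.17, limma adjusted p = 0.117) and without the second (−0.12, limma adjusted p = 0.363), where the lone library of a group is assumed to vary like the other group. It was also lost with libraries scaled to the same total (−0.12, limma adjusted p = 0.180), under quantile normalization (−0.05, limma adjusted p = 0.291) and without a variance trend (limma adjusted p = 0.534). The log2 difference was negative under each of the 17 alternatives tried.

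*Sptbn1* (ENSMUSG00000020315, chromosome 11, 30099395 to 30268175) encodes beta II-spectrin, the usual partner of alpha II-spectrin. It was at 35126 and 35662 in *S100A4*-/- and at 35027 and 36917 in WT lenses. The lowest and the highest values were both from WT libraries, so the groups overlapped entirely. The log2 difference was −0.02 (SE 0.04, limma adjusted p = 0.838), with an interval from 7.08% lower to 4.25% higher. It was −0.0608 without the first WT library and 0.0150 without the second. The ratio of *Sptbn1* to *Sptan1* was 0.636 and 0.603 in *S100A4*-/- and 0.562 and 0.574 in WT lenses. It was higher in both *S100A4*-/- libraries, by 0.13 on the log2 scale (exact two-sided permutation p = 0.333, the smallest possible, adjusted over the 4 ratios 0.667).

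*Ank2* (ENSMUSG00000032826, chromosome 3, 126921612 to 127499350) encodes ankyrin-B, which links spectrin to membrane proteins. Its values were 28420 and 30120 in *S100A4*-/- and 30507 and 31379 in WT lenses. The *S100A4*-/- libraries lay below both WT libraries, the second by little, with a log2 difference of −0.08 (SE 0.04, limma adjusted p = 0.312) and an interval from 10.8% lower to 0.252% higher. Leaving out the first *S100A4*-/- library gave −0.04 and leaving out the second −0.12.

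*Tmod1* (ENSMUSG00000028328, chromosome 4, 46038935 to 46116032) encodes tropomodulin 1, which caps the pointed ends of the actin filaments in the spectrin network of the fiber. It was at 5337 and 5479 in WT lenses and at 4769.9 and 5115 in *S100A4*-/- lenses. No *S100A4*-/- value reached a WT value, and the log2 difference was −0.13 (SE 0.05, limma adjusted p = 0.125), 8.65% lower with an interval from 14.9% to 2.00% lower. Without the first *S100A4*-/- library the difference was −0.08. *Tmod3* (ENSMUSG00000058587, chromosome 9, 75497707 to 75559657) encodes a tropomodulin found in many cell types and was at 234 and 233 in *S100A4*-/- against 246 and 268 in WT lenses. These values rest on 230 to 273 reads in a library, for which counting error alone is up to 6.59%. Its log2 difference of −0.14 (SE 0.13, limma adjusted p = 0.647) had the widest interval of the 10, from 24.5% lower to 9.22% higher. That interval held both no change and a change of the size seen in *Sptan1*. Its width rests largely on the spread of genes of similar level. Without a variance trend the SE was 0.0783 for *Tmod3* and 0.0754 for *Sptan1*. The log2 difference of *Tmod3* was −0.08 without the second WT library and −0.20 without the first. The ratio of *Tmod3* to *Tmod1* overlapped between the groups, at 0.0490 and 0.0456 in *S100A4*-/- and 0.0462 and 0.0490 in WT lenses.

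*Prx* (ENSMUSG00000053198, chromosome 7, 27499324 to 27520214) encodes periaxin, a scaffold protein known from the myelin of Schwann cells and found at the membrane of lens fibers. Its values were 4056 and 4092 in *S100A4*-/- and 4368 and 4472 in WT lenses. The groups did not overlap, and the log2 difference was −0.12 (SE 0.05, limma adjusted p = 0.192), 7.81% lower with an interval from 14.1% to 1.05% lower. *Ezr* (ENSMUSG00000052397, chromosome 17, 6738041 to 6782784) encodes ezrin, which links actin to membrane proteins and was described in the fiber in a complex with periplakin and periaxin. It was at 11012 and 11627 in *S100A4*-/- and at 11608 and 12303 in WT lenses. The second *S100A4*-/- library lay just above the first WT library, and the log2 difference was −0.08 (SE 0.05, limma adjusted p = 0.379), with an interval from 11.1% lower to 0.883% higher. It was −0.04 without the first *S100A4*-/- library or without the second WT library, and −0.12 on leaving out either of the other libraries. The ratio of *Ezr* to *Prx* overlapped between the groups, at 2.72 and 2.84 in *S100A4*-/- and 2.66 and 2.75 in WT lenses.

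**Figure D2:**
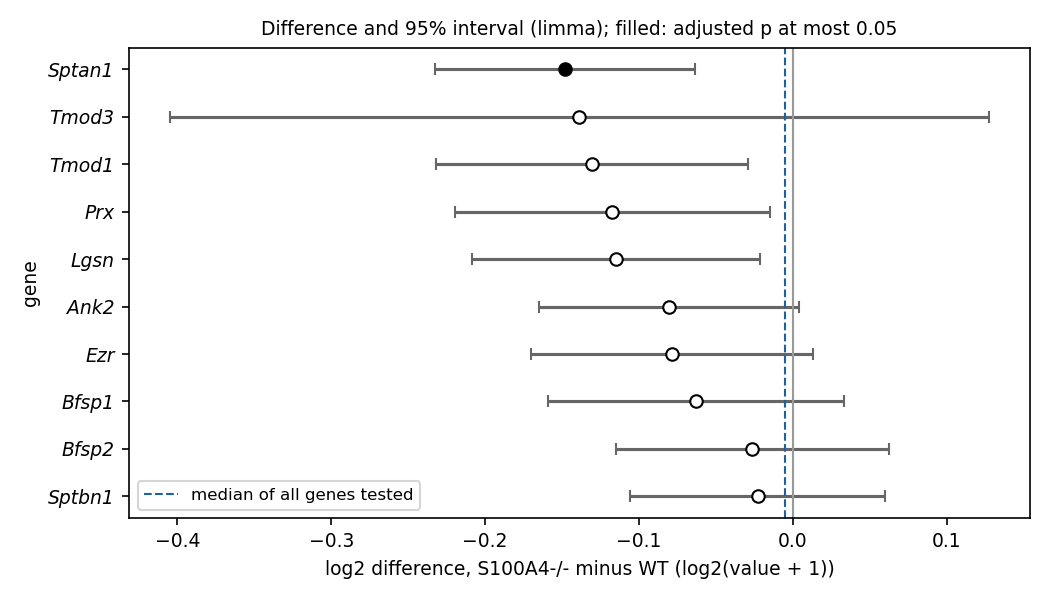
Log2 difference between *S100A4*-/- and WT lenses for each of the 10 genes (points) with its 95% interval (bars, limma), the filled point marking an adjusted p of at most 0.05. All points lie left of 0, from −0.15 for *Sptan1* to −0.02 for *Sptbn1*, and the interval of *Tmod3* is the widest.

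Both *S100A4*-/- values lay below both WT values in 7 of the 10 genes, against 23.2% of all genes tested and 28.4% of the 8623 genes whose mean value was 200 or more. With libraries scaled to the same total this was so for 8 of the 10, against 15.8% of all genes. The median log2 difference of the 10 was −0.10, that of all genes tested −0.01 and that of the 8623 genes with higher values −0.02. For the 9 genes other than *Tmod3*, no interval reached further than 14.9% lower or 4.40% higher. The first *S100A4*-/- library, the deepest of the 4, held the lowest value of 7 of the 10 genes and was below the second in 8 of the 10. Its median over the 10 genes was 0.12 below the WT mean on the log2 scale, and that of the second *S100A4*-/- library was 0.06 below. Among the WT libraries the first was below the second in 9 of the 10 genes. The median log2 difference of the 10 was −0.04 with quantile normalization, where that of all genes was −0.03, and −0.06 without the first *S100A4*-/- library. It was −0.07 with libraries scaled to the same total, where that of all genes was 0.02, and −0.07 without the second WT library. Without the second *S100A4*-/- library and without the first WT library it was −0.12 in each case. With the libraries thinned to equal depth, an alternative chosen after seeing the data, it was −0.10.

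**Figure D3:**
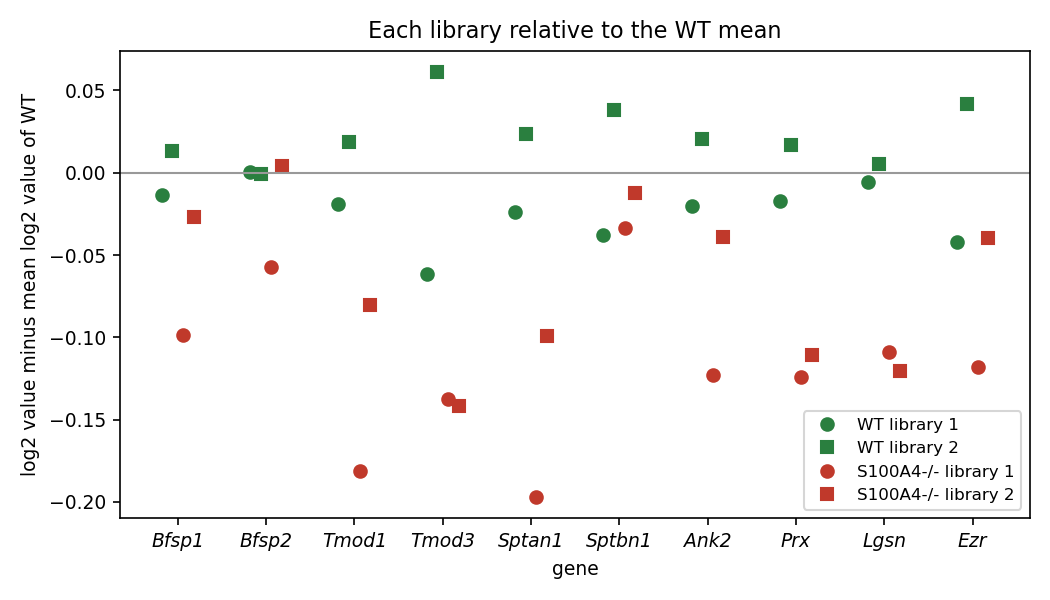
Log2 value of each gene in each library minus the mean log2 value of the WT libraries. The first *S100A4*-/- library lies lowest in 7 genes, most clearly *Tmod1* and *Sptan1*, and *Bfsp2*, *Sptbn1* and *Ezr* are the genes whose groups overlap.

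The genes nearest to the beaded filament genes in level were looked up over the 4 libraries, as the root mean square distance of the log2 level per exonic kilobase among 12913 genes. The 5 nearest to *Bfsp1* were *Mip*, the fiber water channel aquaporin-0, at a distance of 0.12, then *Lgsn* at 0.20, *Gm23935*, annotated as a miRNA gene, at 0.56, *Bfsp2* at 0.57 and *Grifin*, a galectin-related lens protein, at 0.67. For *Bfsp2* they were *Grifin* at 0.15, *Bfsp1* at 0.57, *Mip* at 0.68, *Lgsn* at 0.77 and *Gm23935* at 1.05. *Gm23935* is annotated over 57 bases and its level varied widely in WT, at 336969 ± 85232 (SD, n = 2). *Grifin* fell by 0.26 on the log2 scale (limma adjusted p = 1.24e-05), while *Mip* had a log2 difference of −0.12 that did not pass (limma adjusted p = 0.124).

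Around the 10 genes, 65 further genes of the same structures were listed, of which 60 were analysed and 59 tested. Of these, 4 were higher and 1 lower at an adjusted p of 0.05 (limma), 8.47% against the 6.96% of all genes, and 2 of them rose at least 2-fold. Their median log2 difference was −0.03. Among 12 intermediate filament genes the neurofilament gene *Nefl* rose, from 51.2 and 25.2 in WT to 108 and 99.3 in *S100A4*-/- lenses, a log2 difference of 1.50 (limma adjusted p = 2.27e-04), a call that was lost without the first *S100A4*-/- library (limma adjusted p = 0.0700). The other 11 did not pass. *Vim*, the vimentin gene of the general intermediate filament of lens cells, was at 78205 and 87448 in *S100A4*-/- against 88420 and 89285 in WT lenses. *Synm*, which encodes an intermediate filament protein that co-assembles with vimentin, was at 20631 and 21474 against 22877 and 23146 (limma adjusted p = 0.0517).

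Of the 9 spectrin and ankyrin genes tested, *Sptan1* fell, *Ank3*, which encodes ankyrin-G, rose by 0.27 on the log2 scale (limma adjusted p = 9.97e-04) and 7 did not pass. *Ank3* was at 3528 and 3797 in *S100A4*-/- and at 2928 and 3165 in WT lenses, and its call was lost without the second *S100A4*-/- library (limma adjusted p = 0.0703) or the first WT library (limma adjusted p = 0.0747). *Sptbn1* was not the most abundant beta spectrin of the WT lens per exonic kilobase. *Sptb*, the beta spectrin known from red blood cells, had a level of 3863 and *Sptbn1* a level of 2056. The red blood cell markers were low, with *Hbb-bs*, the most abundant of them, at values of 104 and 55.8 in WT and 158 and 174 in *S100A4*-/- lenses, set beside values of 46617 and 47224 for *Sptb* in WT. The part of blood in the *Sptb* value was not tested.

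Of 10 genes for protein 4.1, adducins and other proteins of the spectrin junction, *Add3* (adducin 3) rose by 0.34 on the log2 scale (limma adjusted p = 0.00561), and its call was lost with DESeq2 (adjusted p = 0.0522) and without the first *S100A4*-/- library (limma adjusted p = 0.238). Of 12 genes for actin, tropomyosins and filament end caps none passed by limma, edgeR or DESeq2, while 4 had an unadjusted limma p under 0.05, and the most abundant, *Actb*, was at 27294 and 30903 in *S100A4*-/- and 30370 and 30359 in WT lenses. Among 15 genes for ezrin, radixin, moesin, periaxin and other linkers, *Ppl* (periplakin) fell by 0.16 on the log2 scale (limma adjusted p = 0.0295), from 7113 and 7473 to 6266 and 6756. Its call was lost with DESeq2 (adjusted p = 0.0867) and on leaving out the first *S100A4*-/- library or either WT library (limma adjusted p from 0.0579 to 0.367). It was also lost with libraries scaled to the same total (limma adjusted p = 0.261), under quantile normalization (limma adjusted p = 0.110) and without a variance trend (limma adjusted p = 0.519), and *Ppl* passed in 10 of 18 settings. None of 9 fiber membrane partners passed by limma, 1 passed by edgeR and 1 by DESeq2, and 2 had an unadjusted limma p under 0.05. Their median log2 difference was −0.05. *Mip* was the most abundant, at 651160 and 650078 in *S100A4*-/- and 711929 and 703652 in WT lenses. *Glul*, the glutamine synthetase gene of the family to which *Lgsn* belongs, rose from 1779 and 1923 to 5387 and 5421, by 1.55 on the log2 scale (limma adjusted p = 4.74e-23), while *Lgsn* did not pass.

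Markers of lens and other cell types were read in the same libraries. Of 8 lens fiber markers, 0 passed by limma, 2 by edgeR and 1 by DESeq2, and 2 had an unadjusted limma p under 0.05. Their summed value was 3699230 and 3818310 in *S100A4*-/- and 4120420 and 3992320 in WT lenses, with *Crygs* the most abundant. Of 4 lens epithelium markers, 0 passed by limma, edgeR or DESeq2 and 2 had an unadjusted limma p under 0.05. Those 2 had log2 differences of opposite sign, *Gja1* with a log2 difference of 0.15 (limma adjusted p = 0.0688) and *Cdh1* with −0.16 (limma adjusted p = 0.104), both named after their values were seen. The summed value of the 4 was 17774 and 17834 in *S100A4*-/- against 17894 and 17871 in WT lenses. *Npnt* had the highest value, and *Foxe3* the highest level per exonic kilobase. All 7 photoreceptor markers rose, with summed values of 6056 and 5814 in *S100A4*-/- and 1343 and 1364 in WT lenses, led by *Gnat1*. All 7 are in the study's own table of raised retinal genes, so their rise was known beforehand. Of 4 Müller glia markers 3 rose, with sums of 6709.5 and 6560.3 against 2603 and 2823, mostly from *Glul*. The study also names these 3, *Glul*, *Slc1a3* and *Rlbp1*, as raised. All 5 pigment cell markers rose, with sums of 1177 and 1230.4 against 174 and 261, led by *Dct* in *S100A4*-/- and by *Tyrp1* in WT lenses. For 4 blood vessel markers, of which *Kdr* rose, the sums were 138 and 138 against 49.1 and 55.8. For 5 red blood cell markers, of which *Hbb-bs* rose, they were 294 and 259 against 169 and 98.5. For 3 macrophage and microglia markers, of which *C1qa* and *C1qb* rose by limma, they were 134 and 121 against 45.9 and 30.7, and 2 of these markers passed by edgeR and 0 by DESeq2. Of 4 Schwann cell markers, which bear on *Prx*, *Pmp22* alone was analysed here and was at 8008 and 8489 in *S100A4*-/- against 8442 and 8465 in WT lenses (limma adjusted p = 0.758). No marker analysed was at 0 in any library. The summed value of the markers of cells outside the lens was small beside that of the lens fiber markers in every library, and the part of those cells in the small differences of the 10 genes was not tested.

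**Figure D4:**
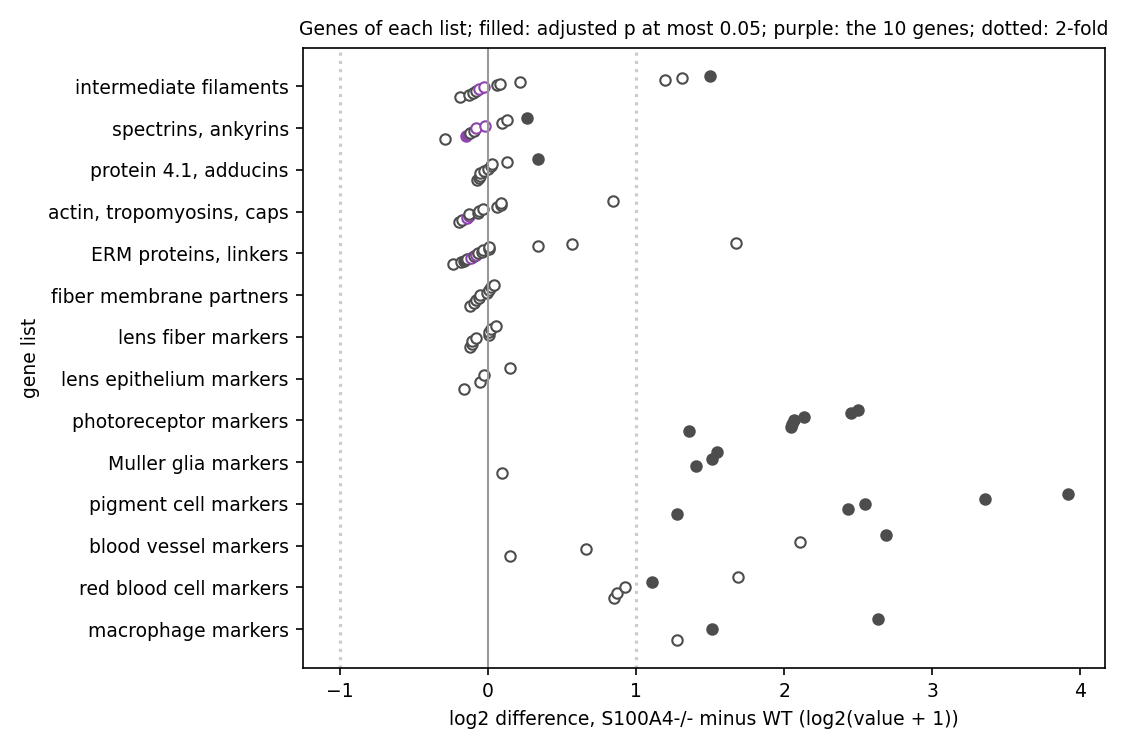
Log2 difference between *S100A4*-/- and WT lenses for each tested gene of the lists drawn (points), filled where the adjusted p was at most 0.05. Those of the 10 genes that are in these lists are in purple, and dotted lines mark a 2-fold change. The list of *Lgsn* and *Glul* and the Schwann cell list are not drawn, so *Lgsn* is absent. Most genes of the fiber skeleton lists and the lens markers crowd around 0, and the markers of photoreceptors, Müller glia and pigment cells lie mostly beyond 1.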

How the data were processed

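Per the study's methods, the authors used Trim Galore, STAR (GRCm38), HTSeq and DESeq2 (versions not given in the sources used here). The deposited signal is a gene's read count over the DESeq2 size factor of its library, uncorrected for length. Reads were recovered from it, and in each library 100% of values were whole within 0.01 reads. There were 0 unused value columns. GENCODE M21 (GRCm38) held 14782 of the 14924 identifiers.

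Groups and replicate numbers came from the labels. limma 3.58.1 (R 4.3.3, variance trend) was fitted to log2(value + 1) for 14780 genes that reached 10 in some library, all 10 described genes among them. DESeq2 1.42.0 and edgeR 4.0.16 on recovered reads, other scalings, filters and pseudocounts, the replicate block and leaving out each library were alternatives. Each test was tried on simulated counts, and the outcomes of these trials are not given here. The strand setting of the counting is not given in the sources used here, and gene models in the table lie opposite *Tmod1* (*Tstd2*, at 788 in WT beside 5408), *Bfsp2* (*5830418P13Rik* at 1546 and *Gm16252* at 228, beside 338407), *Lgsn* (*4931428L18Rik* at 466) and, at 23.1 or less, *Sptbn1*, *Ank2* and *Prx*, so their reads may not be fully separate. Genes were named if they were among the 10, led a list by change or level, or were nearest in level. *Vim*, *Synm* and *Sptb* were picked after seeing values. The 10 genes and the lists were chosen with earlier results of these data known. Some listed genes are not reported here. Figures used Python 3.11.15 and matplotlib 3.10.9.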

Additional observations from a re-analysis of the deposited data

How the results depend on the processing

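For *Tmod3* counting error reached 6.59%, and for the other 9 genes it was at most 1.57%. Of 170 log2 differences of the 10 genes under 17 alternatives, 8 changed sign. The count of the 10 genes past the threshold, 1 in the report, was 0 with equal totals, with equal totals computed without the 10 highest genes, with quantile normalization and without a variance trend, and 2 with the replicate block and with edgeR. Changes of sign occurred in genes near 0. *Bfsp2* was at 0.00262 with equal totals, 0.00438 without the 10 highest genes in the totals and 0.00436 without the first *S100A4*-/- library. *Sptbn1* was at 0.00618, 0.00794, 0.00927 with quantile normalization and 0.0150 without the second WT library. With each library left out in turn, *Bfsp2* ranged from −0.0573 to 0.00436 and *Sptbn1* from −0.0608 to 0.0150. *Bfsp1* was at 0.0230 with quantile normalization, which gives genes of the same rank the same value, so that *Lgsn* and *Bfsp2* had differences of 0 there.

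Of the related genes, 4 were higher and 1 lower in the report. Higher genes numbered 1, *Glul*, without a variance trend. Lower genes numbered 2 with a pseudocount of 5, with quantile normalization (*Ppl* not among them) and with edgeR, 0 with either equal-total scaling and without a variance trend, and 7 with the replicate block. Over all genes, 831 were higher and 197 lower. Higher genes numbered 549 at a mean value of at least 50, 611 with quantile normalization, 571 with DESeq2 and 179 without a variance trend. Lower genes numbered 55 with equal totals and 101 with equal totals computed without the 10 highest genes. Without a variance trend 8 were lower, with the replicate block 348, with quantile normalization 152 and with DESeq2 91. With each library left out in turn, the 10 genes past the threshold ranged from 0 to 1, related genes from 2 to 5 higher and from 0 to 5 lower, and all genes from 404 to 795 higher and from 87 to 161 lower. The order of levels kept 6 of 10 places with the longest transcript. Whether a shared replicate number marks a shared litter or batch is not given in the sources used here, and the deviations of same-numbered libraries had a correlation of 0.01 across the genes tested. With the replicate block *Sptan1* (adjusted p = 9.04e-04) and *Tmod1* (adjusted p = 0.0494) passed with limma.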
